A study of Homo sapiens with 6 samples.

Results

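The genes described here are those whose symbols mark them as RAB GTPases or as regulators and partners of RAB GTPases. They were chosen by a naming rule, set with earlier results of these data known. It took every gene named on the array whose symbol begins with RAB and a number (RAB11FIP included), RABGAP, RABGEF, or TBC1D and a number. The choice gave 19 of 14884 named genes, of which 16 are protein coding, 2 are long noncoding RNA genes and 1 is a transcribed pseudogene. RAB6D was the single RAB GTPase gene among them. The other 63 protein-coding RAB genes of RefSeq and 41 of its 43 protein-coding TBC1D genes were not analysed here, so the set is one of RAB effectors, exchange factors and GTPase-activating proteins rather than of the GTPases themselves.

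The cells were HK2, an immortalised epithelial line established from proximal tubules of human kidney, and RNA was measured on arrays. Both groups were transduced with a pLKO.1 lentivirus that encodes an shRNA and were selected with puromycin. The control shRNA targets GFP, a jellyfish protein without a human gene. The other shRNA targets PGC-1alpha, a coactivator that works with nuclear receptors and other factors and is best known for driving mitochondrial biogenesis. RNA was taken on day 5 after transduction and 24 hours after the end of selection, and each group held 3 arrays, numbered in the labels as biological replicates. The labels name 1 shRNA for each group and do not say whether cultures were transduced separately, so the spread behind each p-value is that between these 6 arrays and may be technical. PGC-1alpha mRNA was not analysed here, so the labels stand without a check on the target. Each array held RMA values, background-corrected and normalised hybridisation signals on the log2 scale, with array medians between 5.00 and 5.04.

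RAB proteins are small GTPases that mark the membranes of the secretory and endocytic routes. An exchange factor loads a RAB with GTP, the loaded RAB recruits effectors such as motors and tethers, and a GTPase-activating protein, often one with a TBC domain, switches it off. In the proximal tubule these steps carry filtered protein from the brush border to lysosomes and return receptors and transporters to the apical surface, and the RAB11 recycling endosome also supplies membrane to the primary cilium.

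Of the 19 genes, 5 were lower and 2 were higher with the shRNA against PGC-1alpha, and 12 did not pass an adjusted p of 0.05 in limma. The genes that fell were RAB11FIP1, RAB11FIP2, RAB3IP, TBC1D31 and the long noncoding RNA RAB11B-AS1, and those that rose were RAB11FIP5 and RAB5IF. The 7 calls were 36.8% of the set, where 21.8% of all named genes passed, 12.2% lower and 9.58% higher. Among protein-coding genes 37.5% of the members passed, against 24.6% of all named ones. With genes below the 20th percentile of level left out, 30.7% of all genes passed, and 2 members rose and 6 fell. With each array centred on its median the share of higher genes among all calls went from 44.0% to 56.5%, and the same 7 genes of the set passed in the same directions. Differences were modest, between -0.62 and 0.30 log2 units (shPGC-1alpha minus shGFP). The median difference was -0.16, against -0.02 over all named genes, and the median size of a difference was 0.20, against 0.14. For 13 genes all arrays of one group lay beyond those of the other (68.4%, against 38.7% of all named genes). Of these 13, 11 were lower and 2 higher, where the groups did not overlap as lower for 21.5% and as higher for 17.2% of all named genes. Among protein-coding genes the groups did not overlap for 62.5% of the members and for 43.1% of all named ones. The set was small, and these shares were not tested against the background. Single genes rest on the limma fit across all genes, because exact permutation of 3 against 3 arrays reaches no p under 0.1.

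**Figure D1:**
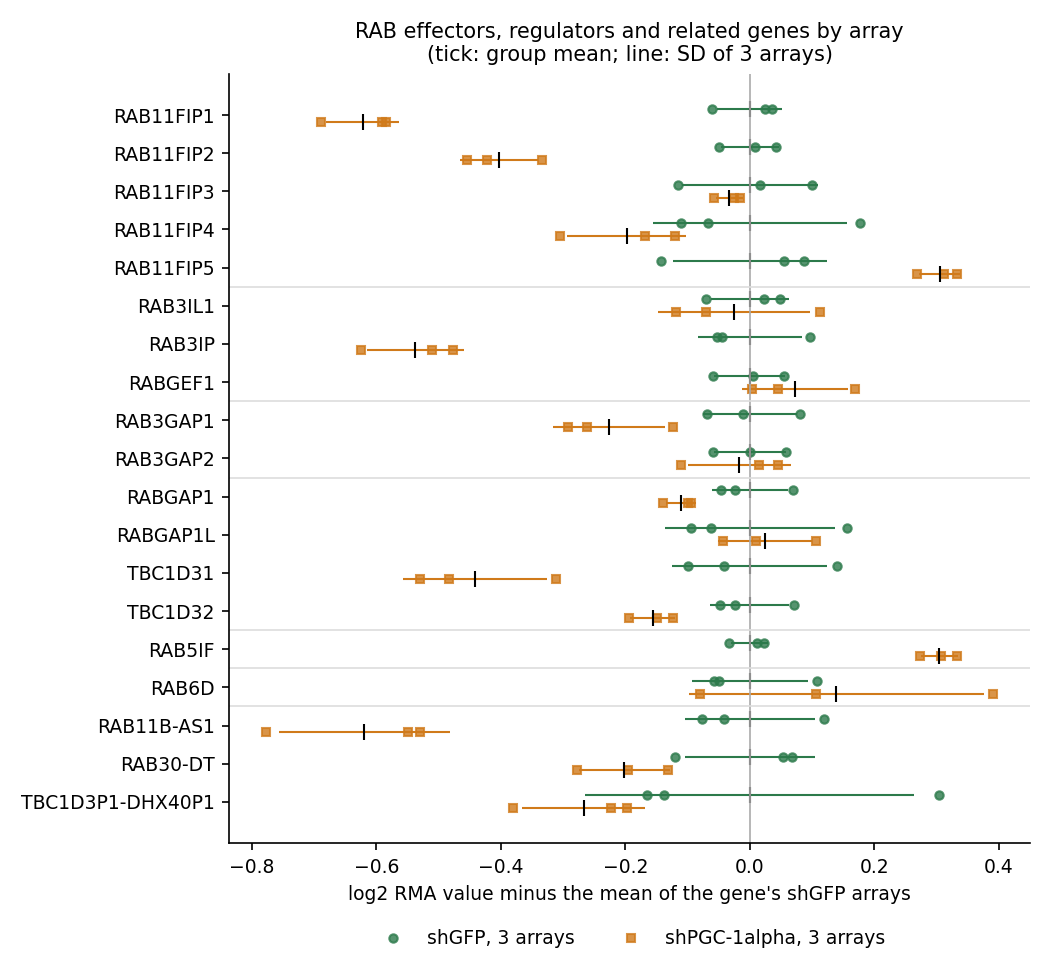
Each row is 1 of the 19 genes, ordered by role, and each point is 1 array, plotted as its log2 RMA value minus the mean of that gene's shGFP arrays; ticks are group means and lines the SD of 3 arrays. The shPGC-1alpha arrays of RAB11FIP1, RAB3IP and RAB11B-AS1 lie about 0.5 log2 units or more below their controls, and those of RAB11FIP5 and RAB5IF lie about 0.3 above.

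The sequence just upstream of the start is shown for a pair of coding genes that fell, RAB11FIP2 and RAB3IP, and for both coding genes that rose, since PGC-1alpha acts through factors that bind near the starts of genes. Each run is the 250 bases before the start in RefSeq (GRCh38.p14), read 5′ to 3′ on the gene's strand, with GC boxes (GGGCGG on either strand) in capitals. RAB11FIP2 lies on the minus strand at chr10:118046942-118047191, RAB11FIP5 on the minus strand at chr2:73112949-73113198, RAB3IP on the plus strand at chr12:69738610-69738859 (the first of 2 listed starts) and RAB5IF on the plus strand at chr20:36605529-36605778.
RAB11FIP2: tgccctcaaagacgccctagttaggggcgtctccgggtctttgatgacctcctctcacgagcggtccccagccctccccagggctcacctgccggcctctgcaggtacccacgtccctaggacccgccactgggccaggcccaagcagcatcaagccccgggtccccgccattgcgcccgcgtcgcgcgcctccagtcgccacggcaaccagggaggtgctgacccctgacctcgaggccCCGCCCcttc
RAB3IP: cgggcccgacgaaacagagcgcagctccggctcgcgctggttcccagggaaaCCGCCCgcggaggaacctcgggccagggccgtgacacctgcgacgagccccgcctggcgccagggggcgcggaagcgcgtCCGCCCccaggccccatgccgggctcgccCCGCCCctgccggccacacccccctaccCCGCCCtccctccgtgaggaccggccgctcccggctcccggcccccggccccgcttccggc
RAB11FIP5: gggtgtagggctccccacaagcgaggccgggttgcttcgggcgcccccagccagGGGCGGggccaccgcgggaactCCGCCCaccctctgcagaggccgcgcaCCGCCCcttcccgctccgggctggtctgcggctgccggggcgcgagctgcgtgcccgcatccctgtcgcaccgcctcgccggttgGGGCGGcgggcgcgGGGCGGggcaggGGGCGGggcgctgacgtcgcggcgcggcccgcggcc
RAB5IF: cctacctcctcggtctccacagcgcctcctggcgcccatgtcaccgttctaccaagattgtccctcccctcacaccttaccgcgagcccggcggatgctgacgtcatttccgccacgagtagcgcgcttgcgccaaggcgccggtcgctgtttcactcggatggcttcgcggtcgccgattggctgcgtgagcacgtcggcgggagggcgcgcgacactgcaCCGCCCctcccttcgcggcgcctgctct
The 4 runs were rich in G and C, at 70.4% for RAB11FIP2, 80.0% for RAB3IP, 81.6% for RAB11FIP5 and 68.0% for RAB5IF, against a median of 58.0% over the 35116 windows of the table. GC boxes were found in 14 of 28 windows of the 15 members in the table, and in 42.6% of all windows. Letters of factors known to work with PGC-1alpha were looked for as well, and so was the E-box, which is not tied here to such a factor. The search covered both strands, and no motif searched contains another. The estrogen-related receptor element TNAAGGTCA and the palindromic motif of NRF1 were in 0 of the 28 windows, where 0.854% and 1.03% of all windows hold them. The ETS motif CCGGAAGT of GABP was in 3 windows, all of RABGEF1 (3.42% of all windows), and the E-box CACGTG in 1 window each of RAB3GAP2 and RABGAP1 (6.34% of all windows). None of the genes that passed held one of these 4 motifs in its windows, where a window was at hand. The motifs are rare and the windows of these genes few, so this absence carries little weight. Other motifs, such as the repeats bound by nuclear receptors, were not searched. These are matches of letters, and no binding was measured.

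RAB11 effectors changed in both directions. The RAB11 family interacting proteins bind RAB11 on the recycling endosome, and all 5 were measured: 2 fell, 1 rose and 2 did not pass. That is 60% passed, against 21.8% of all named genes, in a group too small to describe the role. RAB11FIP1, also called Rab coupling protein, returns receptors such as integrins to the surface. Its shGFP arrays 1 to 3 read 7.36, 7.27 and 7.37 and its shPGC-1alpha arrays 6.74, 6.64 and 6.75. All shPGC-1alpha arrays lay below all shGFP arrays, with a gap of 0.52 between the groups, several times the SD within either (0.05 and 0.06). The difference was -0.62 (SE 0.07, limma adjusted p 0.000822), a 1.54-fold lower level and the smallest adjusted p of the 19 genes.

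RAB11FIP2 links RAB11 to the motor myosin Vb and takes part in delivery to the apical membrane. Its shGFP arrays read 8.54, 8.45 and 8.50 and its shPGC-1alpha arrays 8.16, 8.04 and 8.07. The groups did not overlap, and the difference of -0.40 (SE 0.07, limma adjusted p 0.00502) corresponded to a 1.32-fold lower level. RAB11FIP5, known as Rip11, is a relative of both that carries a lipid-binding C2 domain as they do, and it is known for its part in apical traffic. It went the other way, from 6.39, 6.58 and 6.61 in the shGFP arrays to 6.80, 6.84 and 6.86 in the shPGC-1alpha arrays. The lowest control, replicate 1, set much of the spread, and the groups did not overlap. RAB11FIP5 rose by 0.30 (SE 0.08, limma adjusted p 0.0321) or 1.24-fold. This call was lost with any 1 array left out other than shGFP replicate 3: the adjusted p was 0.0677 and the difference 0.23 without shGFP replicate 1, the adjusted p was 0.0636 without shGFP replicate 2, and it was 0.0641, 0.0850 and 0.0897 without shPGC-1alpha replicate 1, 2 and 3.

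The related genes can also be set against each other within each array, which is unaffected by centring the arrays, though not by quantile normalisation. The log2 ratio of RAB11FIP5 over RAB11FIP1 ran from -0.97 to -0.69 in the shGFP arrays and from 0.06 to 0.20 in the shPGC-1alpha arrays. Its mean shifted by 0.93, or 1.90-fold, and the arrays did not overlap (exact permutation p = 0.1, two-sided, the smallest that 3 against 3 can give, and 0.114 adjusted over 8 ratios). The ratio of RAB11FIP5 over RAB11FIP2 shifted by 0.71 (exact permutation p = 0.1), again without overlap. RAB11FIP5 rose while RAB11FIP1 and RAB11FIP2 fell, each without overlap, so both ratios had to separate. The shift of any such ratio equals the difference of one gene minus that of the other. The ratios here and below therefore add no support to the results of the single genes. Of the 8 ratios 7 did not overlap, RABGAP1 over RABGAP1L among them (shift -0.14, exact permutation p = 0.1). Between the 2 genes that fell, the ratio of RAB11FIP1 over RAB11FIP2 shifted by -0.22 (exact permutation p = 0.1), so the decrease of RAB11FIP1 was the larger one in these arrays. The ratio of RAB11FIP3 over RAB11FIP4 overlapped between the groups (shift 0.17, exact permutation p = 0.3). The absolute value of such a ratio compares different probes and has no meaning of its own.

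RAB11FIP3 and RAB11FIP4, which also bind ARF GTPases and are known from cytokinesis, did not pass. RAB11FIP3 read 6.26, 6.35 and 6.13 in the shGFP arrays and 6.19, 6.22 and 6.23 in the shPGC-1alpha arrays, which lay inside the range of the controls, and its difference was -0.03 (95% confidence interval -0.21 to 0.14; such intervals are per gene, with no adjustment for the number of genes). RAB11FIP4 read 5.55, 5.30 and 5.26 and 5.25, 5.07 and 5.20, with a difference of -0.20 (95% confidence interval -0.43 to 0.03, limma adjusted p 0.21). Its groups were 0.01 apart, far less than the SD within either. The interval leaves room for a decrease of RAB11FIP4 as large as that of RAB11FIP2.

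**Figure D2:**
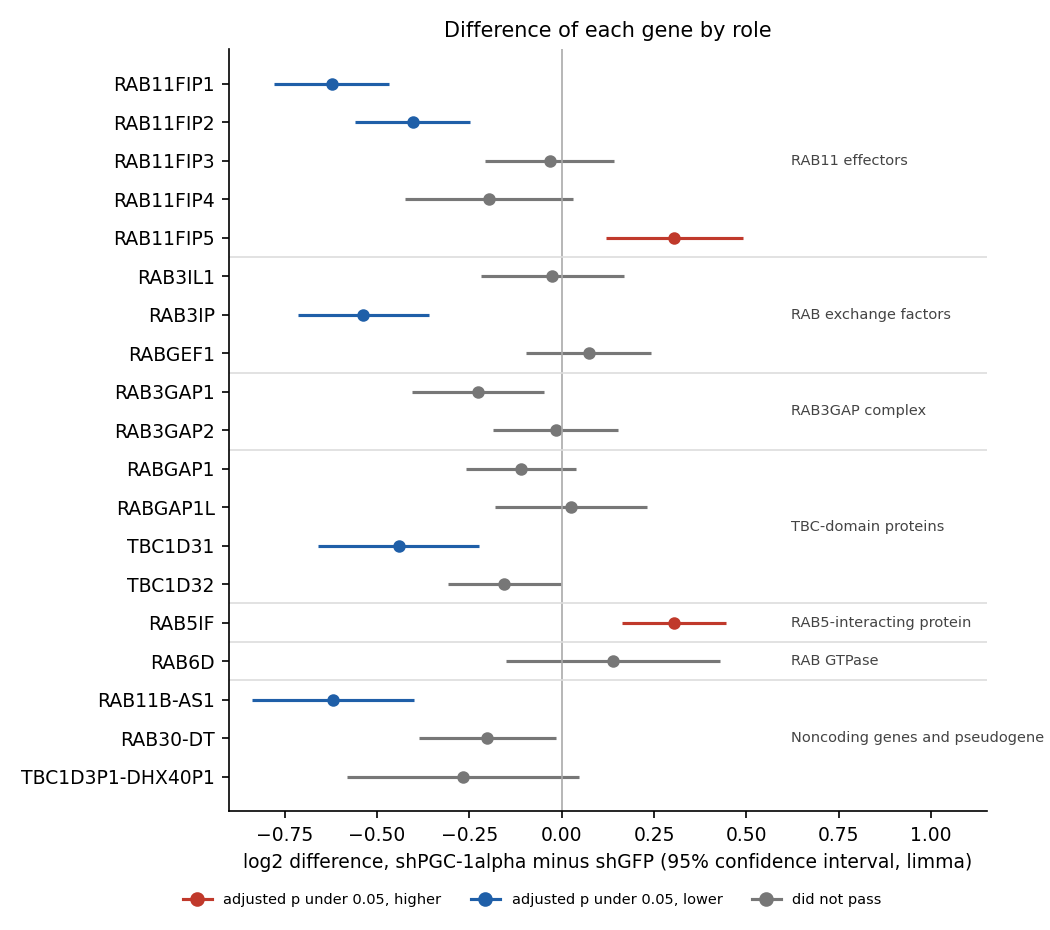
Points are log2 differences (shPGC-1alpha minus shGFP) from limma and lines their 95% confidence intervals, with 3 arrays in each group; genes are grouped by role, blue and red mark genes that passed an adjusted p of 0.05 as lower or higher, and grey marks those that did not. Among the RAB11 effectors, RAB11FIP1 and RAB11FIP2 lie below 0 and RAB11FIP5 above it.

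Among exchange factors, which switch RABs on, 1 of 3 fell (33.3% passed, against 21.8% of all named genes), too few to describe the role. RAB3IP, known as Rabin8, loads RAB8 and is carried by RAB11 vesicles to the base of the forming cilium. Its shGFP arrays read 5.15, 5.00 and 5.01 and its shPGC-1alpha arrays 4.57, 4.42 and 4.54. Every shPGC-1alpha array was lower than every control, and RAB3IP fell to 4.51 ± 0.08 (SD, n = 3), a difference of -0.54 (SE 0.08, limma adjusted p 0.00259) or 1.45-fold. The level was dim, close to 4.43, the 20th percentile of the named genes, and at such levels RMA values can understate fold changes. Its relative RAB3IL1, or GRAB, an exchange factor for RAB3A and RAB8, stayed within overlapping ranges, at 5.88 ± 0.06 (SD, n = 3) and 5.86 ± 0.12, with a difference of -0.03 (95% confidence interval -0.22 to 0.17). The ratio of RAB3IP over RAB3IL1 within arrays shifted by -0.51 without overlap (exact permutation p = 0.1, 0.114 adjusted over 8 ratios). RABGEF1, or Rabex-5, which activates RAB5 on early endosomes, was at 8.47 ± 0.06 and 8.55 ± 0.09 (SD, n = 3), with a difference of 0.07 (95% confidence interval -0.10 to 0.24).

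RAB3GAP1 and RAB3GAP2 are the catalytic and the noncatalytic subunit of a complex that inactivates RAB3 and activates RAB18. RAB3GAP1 read 9.11, 8.96 and 9.02 in the shGFP arrays and 8.74, 8.91 and 8.77 in the shPGC-1alpha arrays. The groups were separated by 0.05, and the difference of -0.23 (95% confidence interval -0.41 to -0.05) did not pass, at a limma adjusted p of 0.0769. It passed, at an adjusted p of 0.0494, when genes below the 20th percentile of level were left out, and at 0.0133 with a variance model that adds a trend with level and robust fitting together. RAB3GAP2 was at 9.48 ± 0.06 and 9.46 ± 0.08 (SD, n = 3), with overlapping arrays and a difference of -0.02 (95% confidence interval -0.19 to 0.15). The ratio of the subunits within arrays shifted by -0.21 toward less RAB3GAP1, with no overlap (exact permutation p = 0.1, 0.114 adjusted over 8 ratios). This mostly restates the difference of RAB3GAP1, which did not pass.

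Of 4 TBC-domain proteins 1 fell (25% passed, near the 21.8% of all named genes). TBC1D31 sits at centriolar satellites and is known from the building of cilia. It read 7.37, 7.19 and 7.13 in the shGFP arrays and 6.92, 6.75 and 6.70 in the shPGC-1alpha arrays. Replicate 1 was the highest array of each group, and the groups were still 0.21 apart. TBC1D31 fell by 0.44 on the log2 scale (SE 0.09, limma adjusted p 0.0137) or 1.36-fold, and without shPGC-1alpha replicate 3 the adjusted p was 0.0502. TBC1D32, also a ciliary protein and known from Hedgehog signalling, was at 6.96 ± 0.06 and 6.80 ± 0.04 (SD, n = 3). Its shPGC-1alpha arrays lay below the controls by a gap of 0.07, and the difference of -0.16 (95% confidence interval -0.31 to -0.0029) did not pass, at a limma adjusted p of 0.14. The ratio of TBC1D31 over TBC1D32 within arrays shifted by -0.29 (exact permutation p = 0.1). RABGAP1, a GTPase-activating protein of RAB6, was at -0.11 (95% confidence interval -0.26 to 0.04), and its paralogue RABGAP1L was at 0.02 (95% confidence interval -0.18 to 0.23). Both intervals exclude a decrease as large as that of TBC1D31.

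RAB5IF was named for binding RAB5 and is also known as RCAF1, a factor in the assembly of respiratory chain supercomplexes. It read 8.43, 8.44 and 8.38 in the shGFP arrays and 8.75, 8.72 and 8.69 in the shPGC-1alpha arrays. Both groups were tight, with an SD of 0.03 in each, and they were 0.25 apart. RAB5IF rose by 0.30 (SE 0.06, limma adjusted p 0.0108) or 1.24-fold, the same size as the rise of RAB11FIP5 with a smaller error. RAB6D, a copy of RAB6 specific to primates, was the only member below the 20th percentile of level, at 1.78 ± 0.09 and 1.92 ± 0.24 (SD, n = 3). Its arrays overlapped, its difference was 0.14 (95% confidence interval -0.15 to 0.43), and near-identical copies can share its probes, so its value is uncertain.

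The noncoding members are transcripts next to a RAB gene or, for the pseudogene, a copy related to TBC1D3. RAB11B-AS1, transcribed antisense to RAB11B, read 5.64, 5.44 and 5.48 in the shGFP arrays and 4.74, 4.97 and 4.99 in the shPGC-1alpha arrays. The groups were 0.45 apart, and the difference of -0.62 (SE 0.09, limma adjusted p 0.00353) was as large as that of RAB11FIP1 with a wider spread. RAB11B itself was not analysed here, and the sources used here do not say whether the probes tell the strands apart. RAB30-DT, a transcript that starts next to RAB30 and runs away from it, was at -0.20 (95% confidence interval -0.39 to -0.02, limma adjusted p 0.12) and did not pass. The pseudogene TBC1D3P1-DHX40P1 read 6.64, 7.08 and 6.61 in the shGFP arrays, with replicate 2 far above the other two, and 6.58, 6.56 and 6.40 in the shPGC-1alpha arrays. Its difference of -0.27 (limma adjusted p 0.22) did not pass, and near-identical TBC1D3 copies make it uncertain.

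**Figure D3:**
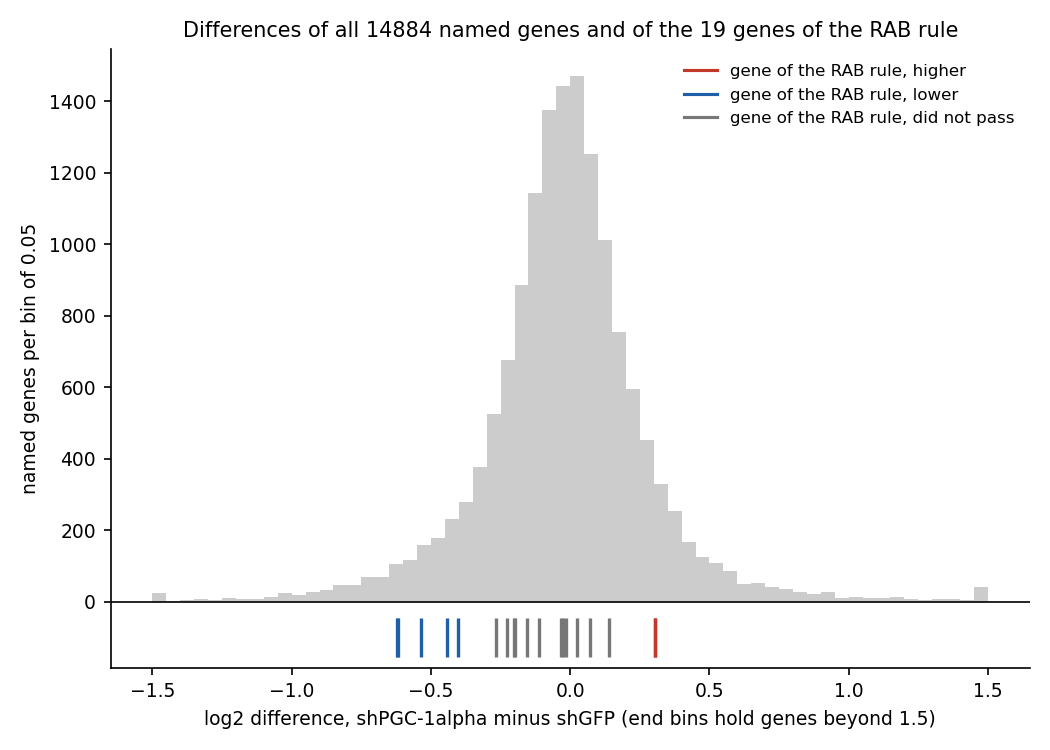
The grey histogram counts the 14884 named genes by their log2 difference (shPGC-1alpha minus shGFP) in bins of 0.05, and the ticks under it are the 19 genes of the set, in blue or red where they passed as lower or higher. The 19 genes lie between -0.62 and 0.30, with 14 below 0 and 5 above.

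The nearest named genes on each side of the members on the RefSeq chromosomes, and those overlapping them, were looked up after the values were seen. Genes not named on the array can lie between. The nearest named neighbour of RAB11B-AS1 is ANGPTL4, an inhibitor of lipoprotein lipase, which rose by 0.88 (SE 0.09, limma adjusted p 0.000764) while RAB11B-AS1 fell. ADGRA2, 13.7 kb from RAB11FIP1, is an adhesion G protein-coupled receptor and rose by 0.57 (SE 0.11). The bestrophin gene BEST3, 38.9 kb from RAB3IP, rose by 0.61 (SE 0.09). DERL1, 30.4 kb from TBC1D31, works in degradation at the endoplasmic reticulum and rose by 0.30 (SE 0.07). Its call was kept without shPGC-1alpha replicate 3 and lost without any other single array. For RAB5IF, which rose, the nearest named gene on one side was NDRG3, 39.2 kb away, at -0.69 (SE 0.10). On the other side it was EPB41L1, 373.0 kb away, at 0.28 (SE 0.07), a call lost with any 1 array left out. The other named neighbours of the 7 called genes, overlapping ones included, did not pass. Some neighbours of members that were not called passed too, in both directions. Over all named genes 21.8% passed, and the share among neighbours was not tested.

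Proteins that work with RABs and fall outside the naming rule were counted in lists of their own. The share that passed was 24.6% among all named protein-coding genes. Of 37 measured RAB effectors, 5 rose and 9 fell (37.8% passed, against 21.8% of all named genes), with a median difference of -0.07. UNC13D, which primes RAB27 vesicles for fusion, fell by 0.87 (SE 0.10), SYTL3, which binds RAB27, fell by 0.60 (SE 0.07), and the motor MYO5C fell by 0.87 (SE 0.11). EEA1, the RAB5 effector that tethers early endosomes, rose by 0.53 (SE 0.06). The limma adjusted p of these 4 lay between 0.000984 for SYTL3 and 0.00170 for MYO5C. The count of effectors that rose was 3 without shPGC-1alpha replicate 3 and 8 with arrays centred on the median. Of 31 exchange factors and partners of such factors, 7 rose and 1 fell (25.8% passed, against 21.8% of all named genes). The median was 0.00, with 16 differences above 0 and 15 below. The count that fell was 0 without shPGC-1alpha replicate 2 and 2 without shGFP replicate 3. FNIP1, counted here only as the partner of folliculin, was at 0.72 (SE 0.10). DENND5A was at 0.64 (SE 0.07), DENND2B at 0.47 (SE 0.06) and DENND5B at 0.40 (SE 0.06). The probe sets of DENND2B disagreed, the dimmest being at -0.14. Of 9 other TBC proteins 1 rose and 2 fell (33.3% passed), with TBCK at -0.48 (SE 0.07), EVI5 at -0.41 and USP6NL at 0.29. The call of USP6NL held without shGFP replicate 3 or shPGC-1alpha replicate 3 and was lost without any other single array, and that of EVI5 was lost without shPGC-1alpha replicate 2 or 3.

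Of 42 subunits of tethering complexes 4 rose and 4 fell (19.0% passed, against 21.8% of all named genes), with VPS54 at -0.72 (SE 0.09), the HOPS subunit VPS39 at -0.55 (SE 0.08), the exocyst subunit EXOC5 at 0.35 and TRAPPC6A at -0.25. The call of EXOC5 was lost with another choice of its probe sets, and that of TRAPPC6A with arrays centred on the median or with 1 array left out other than shPGC-1alpha replicate 3. With arrays centred on the median 6 tethers rose and 2 fell, with genes below the 20th percentile of level left out 4 rose and 7 fell, and with a trend and robust fitting 6 rose and 8 fell. With 1 array left out, rises numbered 3 without shGFP replicate 3, 2 without shPGC-1alpha replicate 3 and 1 otherwise, and falls numbered 2 when shGFP replicate 1, shGFP replicate 3 or shPGC-1alpha replicate 2 was left out and 3 otherwise. Of 22 retromer and sorting nexin genes 5 rose and 4 fell (40.9% passed), and 7 fell with a trend and robust fitting. EHD3, which shapes recycling endosomes, was at -0.98 (SE 0.14), the retromer subunit VPS26A at -0.49 (SE 0.06), SNX17 at -0.47 and SNX3 at 0.39, and the rises numbered 3, 2 and 3 without shGFP replicate 1, shGFP replicate 3 and shPGC-1alpha replicate 3. Of 33 SNAREs, which fuse membranes, 6 rose, 1 fell and 26 did not pass (21.2% passed), with a median of 0.09. The count that rose was 10 with arrays centred on the median, 9 after quantile normalisation and 11 with the variance model that has both a trend and robust fitting. STX12 was at 0.60 (SE 0.07), VAMP3, a SNARE of recycling endosomes, at 0.49 (SE 0.08), STX3, the apical syntaxin, at 0.37, and STX10 at -0.46. Of 14 ARF, ARL and SAR GTPases 2 rose and 2 fell (28.6% passed), with ARF4 at -0.32, ARL3 at -0.36, ARL6 at 0.37 and SAR1A at 0.28; the rises numbered 0 without shGFP replicate 2 or shPGC-1alpha replicate 1 and 1 without any other single array. Of 4 genes of RAB prenylation and recycling 25% passed. CHML fell by 0.24, a call lost with any 1 array left out and with arrays centred on the median.

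**Figure D4:**
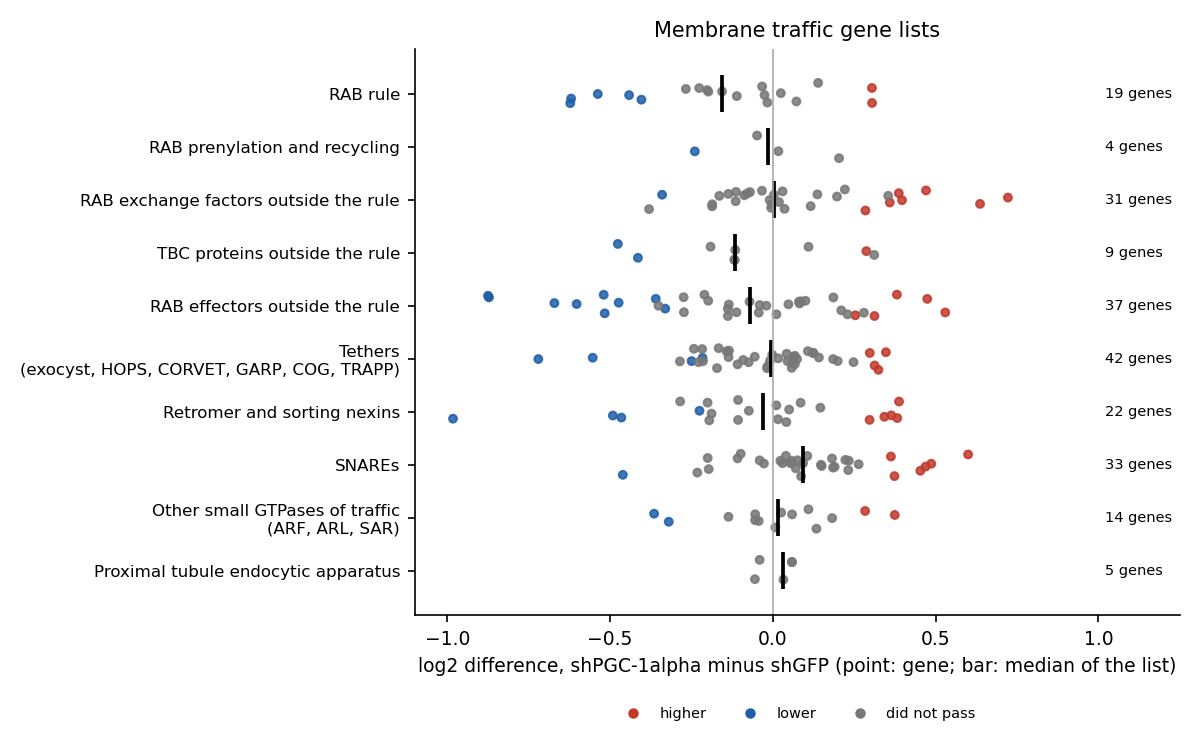
Each point is the log2 difference (shPGC-1alpha minus shGFP) of 1 gene, in rows for the RAB naming rule and 9 further lists of membrane traffic genes, with the median of each list as a bar and the number of measured genes at the right. Blue and red points passed as lower or higher; the medians lie between -0.16 for the RAB rule and 0.09 for SNAREs.

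The tissue label was set against marker genes. Of 15 proximal tubule markers 6 were measured: PAX8, a transcription factor of the nephron, was at 11.44 ± 0.06 (SD, n = 3) and rose by 0.38, and DPP4 was at 10.66 ± 0.03 and fell by 0.27, a call lost with 1 array left out other than shPGC-1alpha replicate 1. The endocytic receptors megalin (LRP2) and cubilin (CUBN), which define the segment, lay below the 20th percentile of level in both groups, with LRP2 at 3.94 ± 0.10 and CUBN at 3.95 ± 0.12 (SD, n = 3) in the shGFP arrays and differences of 0.06 and -0.05. Of the 5 measured genes of the endocytic apparatus 0 passed in limma (0 at an unadjusted p under 0.05), MYO6 being at 0.06. The summed level of the proximal tubule markers, on the log2 scale, was 12.11 to 12.17 in shGFP and 12.29 to 12.34 in shPGC-1alpha arrays. Most of it was PAX8, which rose, and DPP4, which fell. Of 8 measured epithelial markers 1 rose and 5 fell. The tight junction gene CLDN1 rose by 1.33, while KRT19 was at -1.42, EPCAM at -0.73 and TJP1 at -0.47. The summed level of the 8, CLDN1 included, was 12.29 to 12.35 and 12.63 to 12.71. CLDN1 was the only 1 of the 8 with a difference above 0. Both fibroblast markers measured of 9 rose, LUM by 0.76 and DCN by 0.83, with a summed level of 8.59 to 8.64 and 9.29 to 9.46, and DCN was below the 20th percentile of level. Of 5 leukocyte markers CD68, which lysosomes of many cells hold, rose by 0.34, and the summed level, most of it CD68, was 11.21 to 11.27 and 11.50 to 11.61. Of 6 endothelial markers and 3 markers of other nephron segments 0 passed in limma (1 and 0 at an unadjusted p under 0.05), with EMCN at 0.18, below the 20th percentile of level, PECAM1 at -0.12, PODXL at 0.24 and AQP2 at 0.08. EMCN passed with arrays centred on the median (0.23, limma adjusted p 0.0283). The summed levels of both lists were 7.20 to 7.54 and 7.28 to 7.50, and 7.35 to 7.64 and 7.56 to 7.69. The part of these marker changes in the RAB results was not tested, and in bulk RNA fewer cells of a type and less RNA per cell cannot be told apart.

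**Figure D5:**
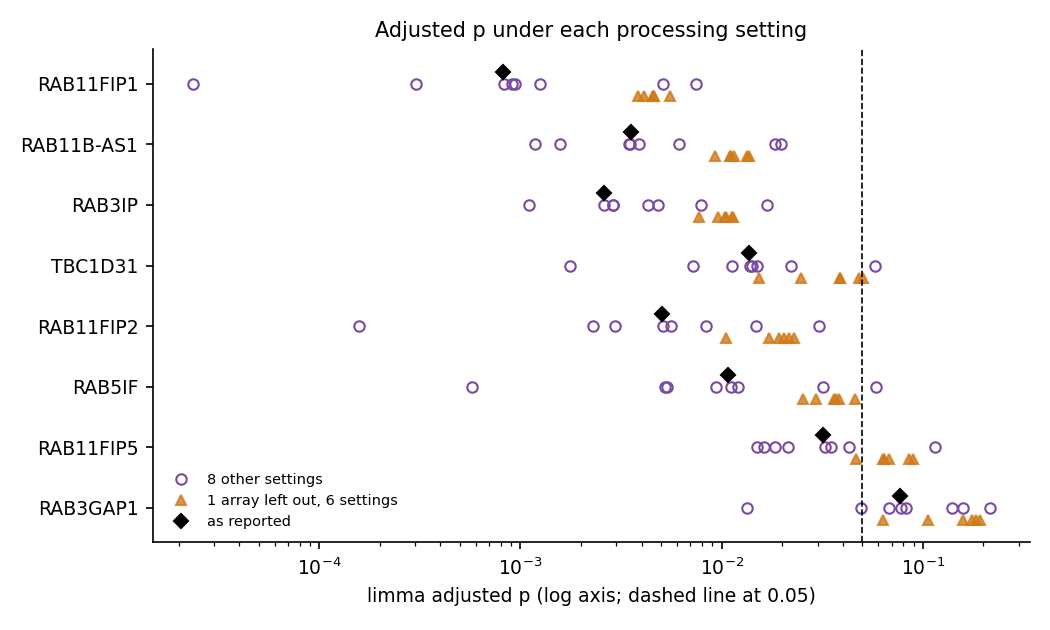
Each row is a gene, and points give its limma adjusted p on a log axis as reported (diamond), with 1 of 6 arrays left out (triangles) and under 8 other settings (circles); the dashed line is at 0.05. RAB11FIP1, RAB11B-AS1, RAB3IP and RAB11FIP2 stay left of the line in all 14 settings, and RAB11FIP5 crosses it in 6.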

How the data were processed

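The 6 HK2 samples each gave 1 Affymetrix array, hybridised with biotin-labelled RNA. The authors deposited log2 values for 53617 probe sets, and the submitters' processing notes name RMA and Affymetrix Expression Console; versions and scan batches were not given in the sources used here. Because RMA gives arrays nearly equal distributions, it would shrink a shift shared by most transcripts. The values carry no counts or detection calls, so precision depends on the number of arrays. The platform's annotation gave 1 symbol for 16098 probe sets, all found in RefSeq. The other 37519 probe sets did not have a single symbol. The probe set with the highest mean stood for each of 14884 genes, and each of the 19 members had 1 probe set.

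Groups came from the sample titles. The fit used lmFit and eBayes (limma 3.58.1, R 4.3.3) with no block and no filter. Benjamini-Hochberg adjustment ran over all 14884 genes, with a threshold of 0.05. The procedure was also run on simulated data with far fewer changed genes than were called here. That run does not measure its error in these data. Within-array ratios had exact permutation tests. Members and lists were chosen with earlier results of these data known. All members are named, with every array for those that passed; of each list, up to 4 genes with the smallest p among those that passed, or 2 where none did. CUBN and the neighbours were chosen after their values were seen. Promoter windows came from RefSeq (15 of 19 members matched). The alternatives were each array left out, a replicate block, other probe set choices, a filter on level, all probe sets, other scalings and a variance model with a trend and robust fitting.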

Additional observations from a re-analysis of the deposited data

How the results depend on the processing

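Each of the 19 members was refitted under 14 settings, except RAB6D, which the filter on level removed. Of 265 values, 242 kept their direction and their side of the threshold. RAB11FIP1, RAB11FIP2, RAB3IP and RAB11B-AS1 passed in every setting tried. The count over all genes fell from 3243 to between 2328 and 2578 with 1 array left out, and to 1737 when all 53617 probe sets were tested together. The latter setting, which adjusts over more tests, left 0 members higher (RAB5IF at an adjusted p of 0.0588 and RAB11FIP5 at 0.115) and TBC1D31 at 0.0581. The count of members that rose was 1 to 2 with 1 array left out, and that of members that fell was 4 to 5. Small differences changed sign: RAB11FIP3 was at 0.020 with arrays centred on the median and at 0.020 after quantile normalisation, RAB3IL1 at 0.027 and 0.022, and RAB3GAP2 at 0.036 with centred arrays. With 1 array left out, RAB11FIP3 ran from -0.091 to 0.017, RAB3GAP2 from -0.048 to 0.030, RAB3IL1 from -0.094 to 0.021, RABGAP1L from -0.022 to 0.10, CUBN from -0.13 to 0.0099 and AQP2 from -0.0021 to 0.17. DENND2B was at -0.14 with its dimmest probe set. Of the 50 other genes named, 13 lost their call in at least 1 setting. Same-numbered arrays of the groups correlated at 0.12, 0.09 and 0.02 in their deviations from the group means. Each shPGC-1alpha array correlated best with the shGFP array of its own number. Likewise shGFP replicates 1 and 2 correlated best with their own number, but shGFP replicate 3 did so with shPGC-1alpha replicate 2 (0.06). Whether the numbers pair the samples was not tested, and the reported fit had no block. A replicate block gave 2773 calls over all genes and the same 7 members. The causes of these shifts were not tested.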
